A study of Homo sapiens with 16 samples.

Results

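TKTL1, RARB, CRH, EBF3, OLIG2 and SYT12 are 6 genes that were listed for being near absent in 1 of 2 untreated lines of the same human lung carcinoma. They are 6 of the 56865 genes summed from the tables and 6 of the 15687 genes that passed the low-count filter. The genes were selected on their reads in the untreated libraries, so the difference between the untreated lines is given here as a description and without a test. The libraries treated with MS78 do not enter the stated selection, although the genes were chosen with earlier results of these data known, and the question asked of them was whether the compound turned a silent gene on or an active gene off.

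Poly(A) RNA was sequenced in 16 libraries, 4 in each of 4 groups. Y220C MS78 and Y220C DMSO are NCI-H1299 cells that stably express p53 Y220C, a structurally unstable mutant of the tumour suppressor p53, and that were kept in G418 at 500 µg/mL. Null MS78 and Null DMSO are NCI-H1299 cells, a p53-null line from a non-small cell lung carcinoma, whose medium lists no G418. MS78 is a bifunctional compound that recruits p300/CBP, enzymes that acetylate proteins, to the mutant p53, and it was given at 10 µM for 24 h, and DMSO is its vehicle. The transgene, G418 and any drift between the lines cannot be told apart, and the labels say neither whether the Y220C line is a clone nor whether replicates are separate cultures, so p-values measure only the spread between these libraries.

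Libraries held 20.3 M to 27.7 M estimated reads. The keratins KRT8 and KRT18 and vimentin were expressed in both lines. The other epithelial markers examined, KRT7, KRT19, CDH1 and EPCAM, each averaged at most 1.77 CPM (reads per 1000000 reads of the normalized library total) in any group. The lung lineage markers NKX2-1, SFTPB and NAPSA summed to at most 1.13 CPM in any library. Transcripts of leukocytes were present in 8 libraries: PTPRC, the leukocyte antigen CD45, had 55 to 99 reads in replicates 2, 3 and 4 of both MS78 groups and in replicate 1 of both DMSO groups, and 0 or 1 in the other 8. The summed level of 13 leukocyte markers was 66.7 to 144 CPM in the 8 libraries with PTPRC reads and 2.41 to 10.5 CPM in the others. These libraries are thus more frequent among the MS78 groups. The set with PTPRC reads has 1 library in each DMSO group and the set without them has 1 in each MS78 group, so that within either set MS78 and DMSO are compared as 3 libraries and 1, and the lines as 3 and 3 or as 1 and 1. A lone library is assumed to vary like the other groups. Values within a set are given where they bear on the call of a gene.

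RARB encodes retinoic acid receptor beta, a nuclear receptor that binds DNA with a retinoid X receptor and whose own promoter is a classical retinoic acid target. TKTL1 encodes a relative of transketolase, an enzyme that moves carbon units between sugars in the pentose phosphate pathway. CRH encodes corticotropin-releasing hormone, the hypothalamic peptide that starts the stress axis. EBF3 and OLIG2 encode transcription factors of neural development, EBF3 of the early B-cell factor family and OLIG2 of the basic helix-loop-helix family that specifies motor neurons and oligodendrocytes. SYT12 encodes a synaptotagmin, a membrane protein of secretory vesicles.

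The sequences before the starts of 3 of the genes are shown because they lie before starts whose transcripts had reads in 1 line and hardly any in the other. They are from RefSeq (GRCh38.p14), read 5′ to 3′ on the strand of the gene. For RARB, the 250 bases at chr3:25428013-25428262 (plus strand) end just before the start of the RARB-203 transcript. The capitals mark a match to 1 spelling of the retinoic acid response element, searched on both strands as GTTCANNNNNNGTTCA. For TKTL1, the 126 bases at chrX:154295545-154295670 (plus strand) end just before the start of the TKTL1-202 transcript, and the capitals mark CG pairs, the bases at which DNA can be methylated. For EBF3, the 250 bases at chr10:129964275-129964524 (minus strand) end before a RefSeq start that lies upstream of the start annotated for the EBF3 transcripts counted here, and the capitals again mark CG pairs.
RARB: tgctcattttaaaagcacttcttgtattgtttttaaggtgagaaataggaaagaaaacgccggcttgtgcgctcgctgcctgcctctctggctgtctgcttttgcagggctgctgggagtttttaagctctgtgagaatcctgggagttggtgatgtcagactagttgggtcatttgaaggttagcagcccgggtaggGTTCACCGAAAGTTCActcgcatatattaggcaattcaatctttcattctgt
TKTL1: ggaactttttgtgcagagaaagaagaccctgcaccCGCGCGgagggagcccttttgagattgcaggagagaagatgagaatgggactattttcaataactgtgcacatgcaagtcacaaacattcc
EBF3: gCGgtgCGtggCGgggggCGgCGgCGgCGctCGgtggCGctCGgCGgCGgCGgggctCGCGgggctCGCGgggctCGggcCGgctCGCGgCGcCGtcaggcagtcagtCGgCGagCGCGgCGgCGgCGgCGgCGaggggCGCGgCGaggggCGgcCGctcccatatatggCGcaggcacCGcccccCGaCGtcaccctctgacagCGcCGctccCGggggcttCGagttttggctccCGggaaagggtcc
The response element of RARB lies 52 to 37 bases before the start. The same letters are in 17 of 35116 windows of 250 bases before RefSeq starts (0.0484%). They are the spelling of RARB itself, so its match was fixed in advance. Other spellings of the element were not searched, and the share covers only windows with this spelling. CATGNNNNNNCATG, the core letters of the p53 element, was in 104 of these windows (0.296%) and in none of those of RARB, TKTL1 or EBF3. The EBF3 window holds 46 CG pairs, a number reached by 0.413% of windows, the printed RARB window 7, and the median window 11. DNA methylation was not measured, and a match to letters is a description only.

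Most of the listed genes kept their state under MS78. A gene was called on in a group at a mean of at least 1 CPM, near absent below 0.1 CPM, and between otherwise. Counting each of the 6 genes in each line gives 12 states, of which 10 were the same in the MS78 group and in its DMSO group and 2 were not. Those 2 were in the Y220C line: TKTL1 was between with MS78 and near absent with DMSO, and CRH was between with MS78 and just on with DMSO. None of the 6 genes was newly on under MS78, and none that was on became near absent. The states that stayed the same include those of SYT12, which was on in all 4 groups. Of all genes on in 1 untreated line and near absent in the other, both lines kept their state in 5 of the 11 on in Null and 4 of the 9 on in Y220C. In bulk RNA, fewer expressing cells and less RNA per cell cannot be told apart.

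**Figure D1:**
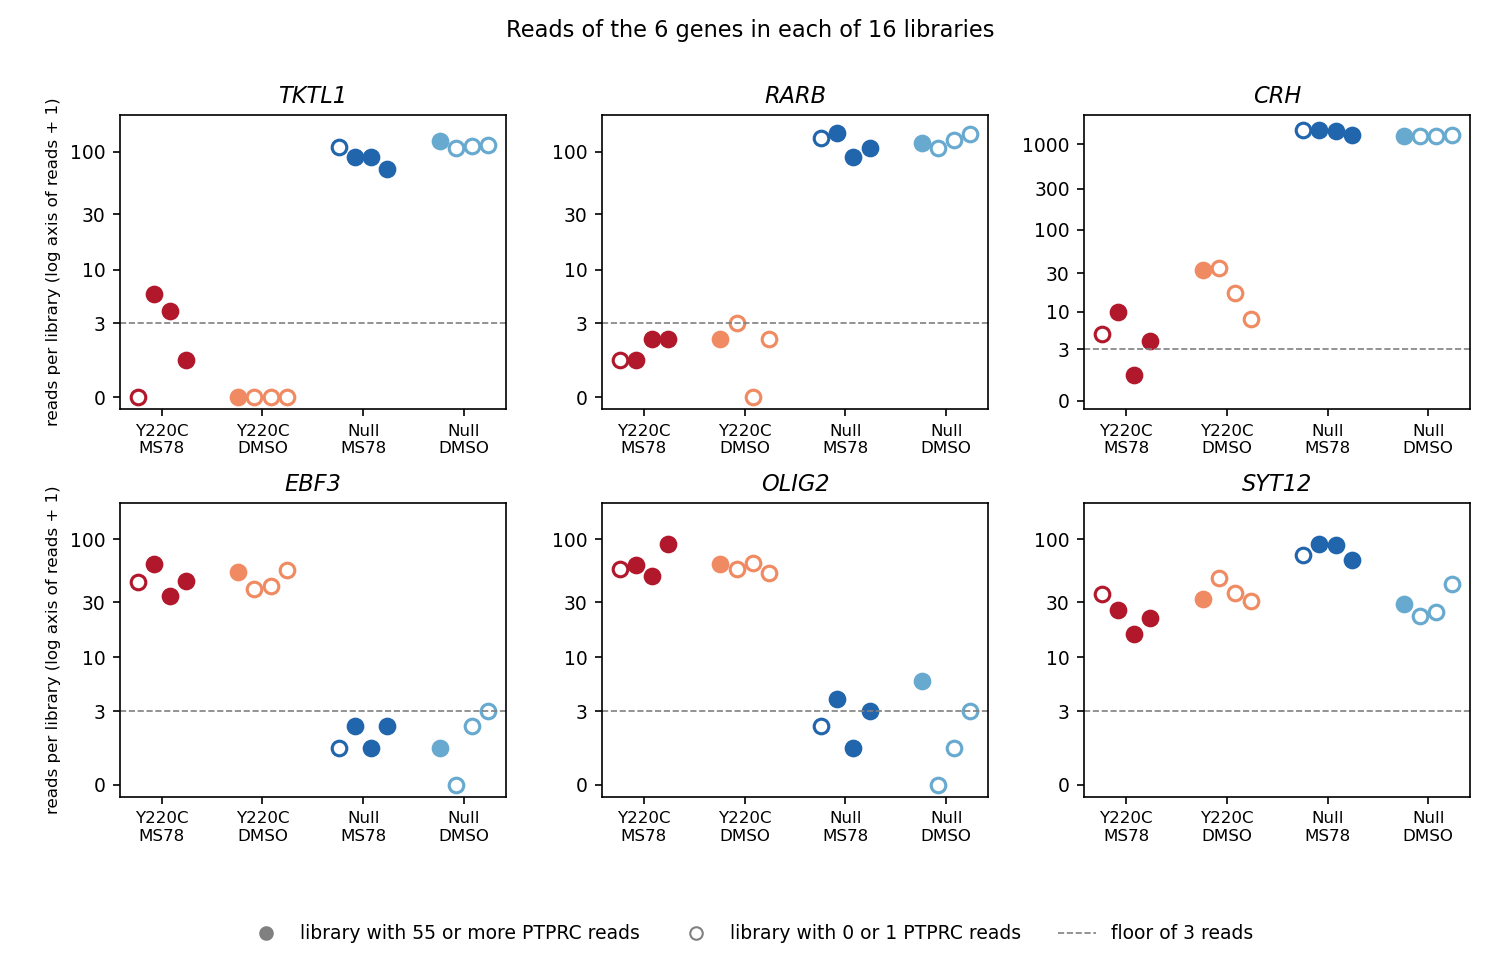
Reads of each gene in every library (points; log axis of reads + 1), with the groups along the x axis. TKTL1, RARB and CRH are high in all 8 Null libraries, EBF3 and OLIG2 are high in all 8 Y220C libraries, and SYT12 has 16 or more reads in every library; filled points are libraries with 55 or more PTPRC reads, and the dashed line is a floor of 3 reads per library.

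RARB was expressed in the Null line and near absent in the Y220C line with and without MS78. It had 1, 1, 2 and 2 reads in Y220C MS78 and 2, 3, 0 and 2 in Y220C DMSO, against 130, 142, 90 and 107 in Null MS78 and 117, 106, 125 and 140 in Null DMSO. The lines did not overlap under MS78 (56.4% of all tested genes did not), nor under DMSO (43.6%), where the reads selected the gene. RARB averaged 0.0759 ± 0.031 CPM in Y220C MS78 and 4.77 ± 0.70 CPM in Null MS78 (SD, n = 4 each), a ratio of reads of 63.5 (95% counting interval 28.9 to 174) in favour of the Null line. The log2 fold change of the Y220C line against the Null line under MS78 was -5.89 (adjusted p = 9.13e-13, edgeR quasi-likelihood test with Benjamini-Hochberg adjustment over all genes, as for every adjusted p below). Intervals on reads cover counting error only. RARB passed the low-count filter through the Null line, so its p under MS78 is a description. The same holds for the p-values between the lines of TKTL1, EBF3 and OLIG2, which passed through their high line.

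MS78 did not move RARB past the test in either line. In the Y220C line both groups lay at or below 3 reads per library on average, so no fold is given, and the exact permutation test of CPM gave a two-sided p of 1 with 4 libraries against 4, where the smallest possible p is 0.0286. In the Null line the log2 fold change of MS78 against DMSO was -0.10 (adjusted p = 0.697). Of the 469 RARB reads in Null MS78, 88.1% were assigned to RARB-201 and 10.96% to RARB-203, against 94.1% and 4.66% in Null DMSO. Both transcripts start just after the printed window, at position 25428311 and position 25428263 of chromosome 3. RARB-203 had 0, 27.1, 24.3 and 0 estimated reads in the libraries of Null MS78 and 12.8, 0, 9.96 and 0 in those of Null DMSO. No change of these shares with MS78 is read from them. The 6 reads in Y220C MS78 and 7 in Y220C DMSO fell mostly on other transcripts, with 50.0% and 71.4% on RARB-204, which starts at 25458310.

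TKTL1 was expressed in the Null line and had almost no reads in the Y220C line. It had 0, 6, 4 and 1 reads in Y220C MS78 and 0 in each of the 4 libraries of Y220C DMSO, against 108, 91, 91 and 72 in Null MS78 and 123, 107, 112 and 114 in Null DMSO. The lines did not overlap under MS78 (56.4% of all tested genes did not), nor under DMSO (43.6%), where the reads selected the gene. Under MS78 the Null line had 26.7 times the reads of the Y220C line (95% counting interval 14.8 to 54.0), with a log2 fold change of -4.69 for Y220C against Null (adjusted p = 3.30e-09). With DMSO, where every Y220C library is at 0, TKTL1 was at least 35.05-fold lower in Y220C than in Null, taking 3 reads per library as the floor.

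The 11 TKTL1 reads of Y220C MS78 give a level of 0.138 ± 0.14 CPM, about that of the floor. edgeR gave an adjusted p of 0.00255 against DMSO, but the 0 reads of Y220C DMSO are values that selected the gene and it passed the low-count filter through the Null line, so nothing is read from this p. The exact two-sided permutation p was 0.143 with 4 libraries against 4. All 11 reads came from replicates 2, 3 and 4, which are the libraries of this group with PTPRC reads. In the libraries without PTPRC reads TKTL1 stood at 0 reads in Y220C MS78 (replicate 1) and at 0 in Y220C DMSO (replicates 2, 3 and 4). The transcripts differed as well. All 11 reads were assigned to TKTL1-201, which starts at 154305057 on chromosome X, whereas 98.9% of the reads in Null MS78 and 97.96% in Null DMSO were assigned to TKTL1-202, which starts at 154295671, just after the printed bases. The remaining TKTL1-201 reads of the series, 3.93 estimated reads, were in Null MS78 replicate 2, also a library with PTPRC reads. The part of leukocyte RNA in these reads was not tested. In the Null line the log2 fold change of TKTL1 with MS78 was -0.38 (SE 0.22, adjusted p = 0.226). TEX28, on the opposite strand, overlaps the 5′ end of TKTL1, and it had 0 to 4 reads in Null MS78 and 0 to 3 in Null DMSO; whether the counting used strand is not given in the sources used here.

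CRH was high in the Null line and low rather than absent in the Y220C line. It had 5, 10, 1 and 4 reads in Y220C MS78 and 33, 35, 17 and 8 in Y220C DMSO, against 1460, 1494, 1446 and 1303 in Null MS78 and 1239, 1253, 1268 and 1303 in Null DMSO. In CPM these are 0.247 ± 0.18 in Y220C MS78, 1.06 ± 0.60 in Y220C DMSO, 58.4 ± 4.0 in Null MS78 and 53.2 ± 1.5 in Null DMSO. Under MS78 the Null line had 232 times the reads of the Y220C line (95% counting interval 150 to 379, which leaves out the spread between libraries). With DMSO, whose reads entered the listing, the Null line had 50.2 times the reads.

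CRH fell 4.16-fold with MS78 in the Y220C line (log2 fold change -2.06, SE 0.46, adjusted p = 0.000897), and Y220C MS78 and Y220C DMSO overlapped, since replicate 2 of MS78 had 10 reads and replicate 4 of DMSO had 8. The exact two-sided permutation p over the 4 against 4 libraries was 0.0571. In the Null line the log2 fold change of CRH was 0.13 (SE 0.087, adjusted p = 0.293), and the responses differed by -2.19 (SE 0.47, adjusted p = 0.00152, interaction of line and treatment). The reads of Y220C DMSO entered the listing of CRH. The p-values that use them are therefore given as a description. Among libraries with PTPRC reads the Y220C fold change of CRH was -2.45 (adjusted p = 0.00204), and among those without it was -1.90 (adjusted p = 0.143), with 1 library in an arm of each fit. The sign was the same in both sets and the call was not.

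Of the 16 coding neighbours of the 6 genes that were tested, all differed between the lines under MS78, 7 being higher and 9 lower in Y220C, where 61.8% of all tested genes differed. They did not all follow the listed gene: beside TKTL1, FLNA (0.21) and EMD (0.32) were higher in Y220C. MGMT (-0.55), 67276 bases from EBF3, and MKI67 (-0.81), 1708898 bases from EBF3, were lower in Y220C. The 3 tested neighbours of CRH were lower in the Y220C line, as CRH was. TRIM55, a muscle ubiquitin ligase whose annotated end lies 895 bases from that of CRH on the opposite strand, averaged 0.314 ± 0.16 CPM in Y220C MS78 and 1.41 ± 0.27 CPM in Null MS78 (log2 fold change -2.16, adjusted p = 5.65e-06). With DMSO it averaged 0.642 ± 0.14 CPM in Y220C and 1.52 ± 0.078 CPM in Null (-1.24, adjusted p = 0.00114). DNAJC5B, a cysteine string protein gene beyond TRIM55, was likewise lower in Y220C, by -3.25 under MS78 (adjusted p = 1.24e-05) and by -1.81 under DMSO (adjusted p = 0.000796). Under DMSO neither passed within the libraries with PTPRC reads (0.133 for TRIM55 and 0.126 for DNAJC5B), nor did TRIM55 with counts made from length-scaled TPM (0.323). With MS78 against DMSO in the Y220C line, TRIM55 fell 2.02-fold (-1.02, SE 0.34, adjusted p = 0.0178) and DNAJC5B fell 3.32-fold (-1.73, SE 0.58, adjusted p = 0.0184). Both calls rest on few reads, 3 to 9 in Y220C MS78 and 11 to 16 in Y220C DMSO for TRIM55, and 0 to 3 in Y220C MS78 and 3 to 9 in Y220C DMSO for DNAJC5B. That of TRIM55 was lost without Y220C MS78 replicate 1 (adjusted p = 0.0585) or replicate 4 (0.0604), and that of DNAJC5B without Y220C MS78 replicate 1 (0.0557) or Y220C DMSO replicate 4 (0.0673). TRIM55 missed the threshold in each set of libraries taken alone (adjusted p = 0.480 with and 0.0668 without PTPRC reads), and DNAJC5B in the set with PTPRC reads (0.848). With counts made from length-scaled TPM neither was called (0.413 for TRIM55 and 0.876 for DNAJC5B). RRS1, a ribosome biogenesis gene on the other side of CRH, averaged 63.5 ± 3.2 CPM in Y220C MS78 and 84.2 ± 3.3 CPM in Null MS78.

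**Figure D2:**
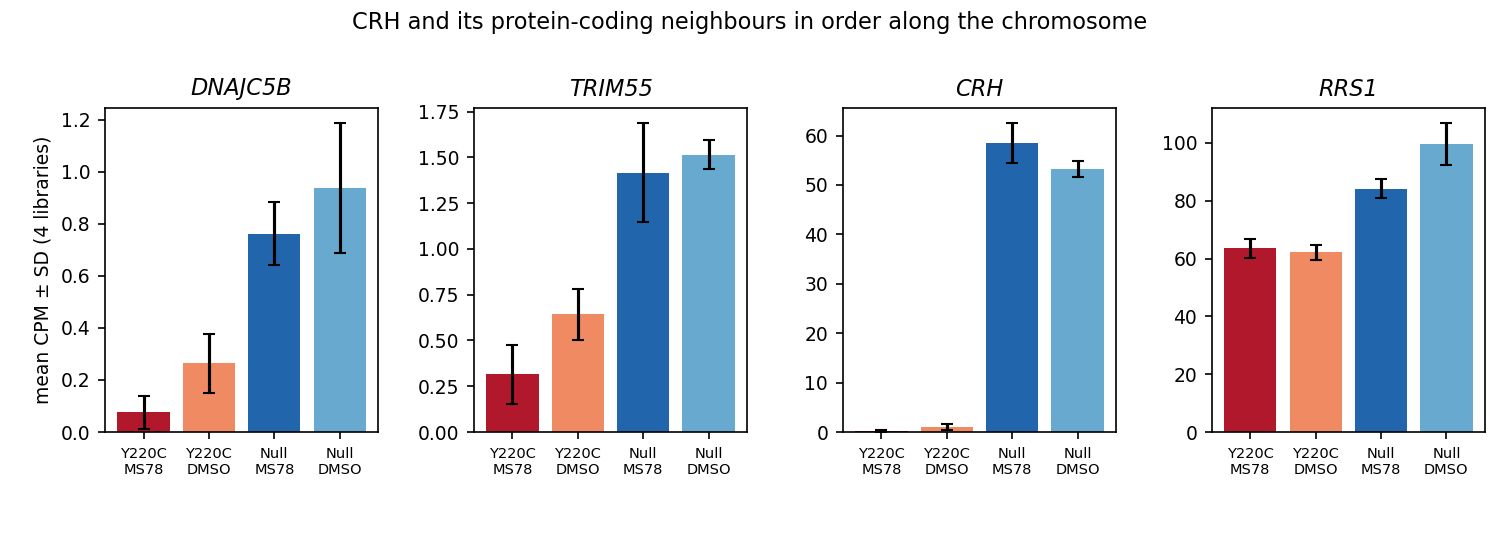
Mean CPM ± SD over 4 libraries of CRH and of the neighbouring genes DNAJC5B, TRIM55 and RRS1, with the groups along the x axis and a y axis of its own for each gene. DNAJC5B, TRIM55 and CRH are lowest in Y220C MS78 and low in Y220C DMSO, while RRS1 stands above 60 CPM in all groups.

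EBF3 was on in the Y220C line and near absent in the Null line. It had 44, 62, 34 and 45 reads in Y220C MS78 and 54, 39, 41 and 56 in Y220C DMSO, against 1, 2, 1 and 2 in Null MS78 and 1, 0, 2 and 3 in Null DMSO. The lines did not overlap under MS78 (56.4% of all tested genes did not), nor under DMSO (43.6%), where the reads selected the gene. Under MS78 the ratio of reads was 38.0 in favour of Y220C (95% counting interval 17.1 to 105), and the log2 fold change was 5.12 (adjusted p = 7.15e-10). With MS78 against DMSO, EBF3 gave 0.10 in the Y220C line (SE 0.26, adjusted p = 0.775) and an exact two-sided permutation p of 1 over the 4 against 4 libraries in the Null line. In Y220C MS78 67.2% of the EBF3 reads were assigned to EBF3-202 and 29.5% to EBF3-201, which both start at 129963841 on chromosome 10. In Y220C DMSO these shares were 89.2% and 8.61%.

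OLIG2 was on in the Y220C line and hardly detected in the Null line. It had 57, 61, 50 and 92 reads in Y220C MS78 and 62, 57, 64 and 53 in Y220C DMSO, against 2, 4, 1 and 3 in Null MS78 and 6, 0, 1 and 3 in Null DMSO. At 0.102 CPM in Null MS78 and 0.105 CPM in Null DMSO it lay just above the limit for near absence. Under MS78 the ratio of reads was 32.01 in favour of Y220C (95% counting interval 17.1 to 67.5), with a log2 fold change of 4.93 (adjusted p = 2.28e-09). MS78 gave a log2 fold change of 0.28 in the Y220C line (adjusted p = 0.437) and an exact two-sided permutation p of 0.971 over the 4 against 4 libraries in the Null line. OLIG1, the paralog that lies 40948 bases away, had 1 to 9 reads in Y220C MS78 and 3 to 10 in Y220C DMSO, and 0 reads in all 8 Null libraries, and it did not pass the low-count filter.

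SYT12 went against its listing. It had 35, 26, 16 and 22 reads in Y220C MS78 and 32, 48, 36 and 31 in Y220C DMSO, against 74, 91, 90 and 67 in Null MS78 and 29, 23, 25 and 43 in Null DMSO. The untreated lines overlapped, at 1.69 ± 0.44 CPM in Y220C DMSO and 1.25 ± 0.31 CPM in Null DMSO, and SYT12 was on in all 4 groups. In the Y220C line the log2 fold change of SYT12 with MS78 was -0.44 (SE 0.24, adjusted p = 0.137), and it was past the threshold without Y220C MS78 replicate 1 (-0.64, adjusted p = 0.0430). In the Null line SYT12 rose 2.61-fold with MS78 (log2 fold change 1.38, SE 0.22, adjusted p = 7.02e-05). Null MS78 and Null DMSO did not overlap, as for 29.3% of all tested genes. The responses of the lines differed by -1.83 (SE 0.33, adjusted p = 0.000326), and under MS78 SYT12 was lower in Y220C than in Null (-1.40, adjusted p = 2.07e-05). The DMSO reads entered the listing of SYT12 as well, so its p-values against DMSO and for the difference of responses are a description.

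Among libraries with PTPRC reads, with 1 library in Null DMSO, the SYT12 response in the Null line was 1.44 (adjusted p = 0.00681). Among those without, with 1 library in Null MS78, it was 1.19 (adjusted p = 0.0897). The difference between the responses of SYT12 was -1.78 (adjusted p = 0.0257) with PTPRC reads and -1.24 (adjusted p = 0.292) without. The difference between the lines under MS78 was -0.73 (adjusted p = 0.287) for SYT12 without the libraries with PTPRC reads. C11orf86, the nearest coding gene before SYT12, averaged 1.09 ± 0.20 CPM in Null MS78 and 0.380 ± 0.048 CPM in Null DMSO (log2 fold change 1.503, adjusted p = 0.00357), a call that neither set of libraries gave alone (adjusted p = 0.207 with and 0.245 without PTPRC reads).

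Counted over the list, MS78 against DMSO called 2 of the 6 genes in the Y220C line (CRH, and TKTL1 at the floor), where 48.5% of all tested genes were called, and 1 of the 6 in the Null line (SYT12), where 28.1% were. The difference of the responses was called for 3 of the 6 (CRH, SYT12 and TKTL1), against 26.8% of all tested genes. Nothing is read from the calls of TKTL1, which rest on the reads that selected it. Within the libraries without PTPRC reads edgeR called 0 of the 6 in each of these comparisons, with 1, 1 and 2 past an unadjusted p of 0.05. Under MS78 all 6 genes differed between the lines and did not overlap, where 61.8% of tested genes were called and 56.4% did not overlap. EBF3 and OLIG2 were higher in Y220C under MS78 (30.7% of tested genes were) and TKTL1, RARB, CRH and SYT12 were lower (31.2%). The MS78 comparisons within a line and the difference of the responses share their DMSO libraries with the listing, so their calls are a description. The comparison of the lines under MS78 does not share them, but TKTL1, RARB, EBF3 and OLIG2 passed the low-count filter through the line where they are high. The genes were also chosen with earlier results of these data known, so the calls under MS78 are a description too. On the TPM scale, which allows genes of different length to be compared, CRH stood at 59.0 ± 3.9 TPM in Null MS78, TKTL1 at 1.93 ± 0.20 TPM and RARB at 2.17 ± 0.32 TPM, while EBF3 stood at 0.930 ± 0.098 TPM and OLIG2 at 1.80 ± 0.64 TPM in Y220C MS78.

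**Figure D3:**
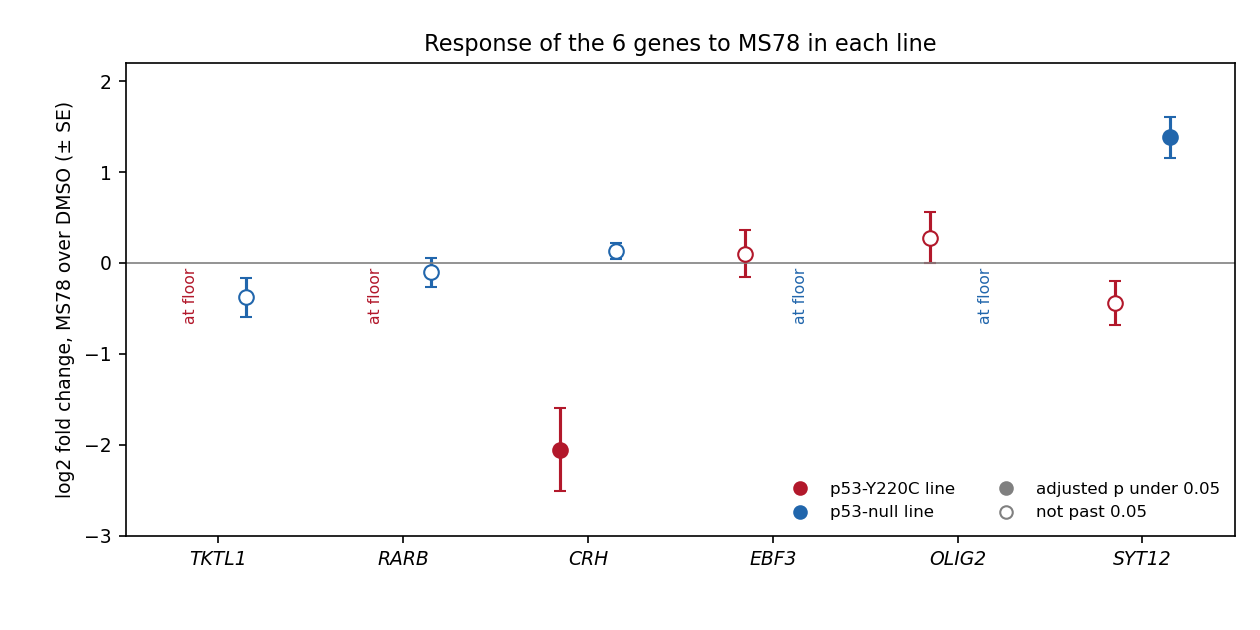
Log2 fold change (± SE) of MS78 against DMSO for the 6 genes, Y220C line left of the Null line; filled points are past an adjusted p of 0.05, and "at floor" marks a gene with a mean of 3 reads or fewer in both groups, for which no fold is drawn. SYT12 in the Null line (1.38) and CRH in the Y220C line (-2.06) are the filled points.

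The same cuts applied to all genes found 20 genes that were on in 1 untreated line and near absent in the other, 3 of them listed here (TKTL1, RARB and EBF3). On in Null DMSO and near absent in Y220C DMSO were 11 genes, of which 7 are protein coding: TKTL1, RARB, HAS2 (a hyaluronan synthase), SCNN1G (a subunit of the epithelial sodium channel), SOX17 (an endoderm transcription factor), RNF144A and XKR4. On in Y220C DMSO and near absent in Null DMSO were 9, all protein coding: EBF3, BCHE (butyrylcholinesterase), CADM1 (a cell adhesion molecule), FXYD6, EDARADD, FMN2, MAT1A, TMPRSS15 and RFPL4AL1. Under MS78, both lines kept their state in 5 of the 11 and in 4 of the 9. The silent line stayed near absent in 6 of the 11 and 7 of the 9, and it reached 1 CPM in 2 genes, the processed pseudogenes RPL24P4 and AC090589.1. Their reads varied widely between libraries, from 0 to 71 within Y220C MS78 for RPL24P4, and reads of such copies can be split with their parent genes. Without Null DMSO replicate 1 OLIG2 also met the cuts and the genes numbered 32, and without Y220C DMSO replicate 1 they numbered 31. RARB no longer met the cuts without Y220C DMSO replicate 3.

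**Figure D4:**
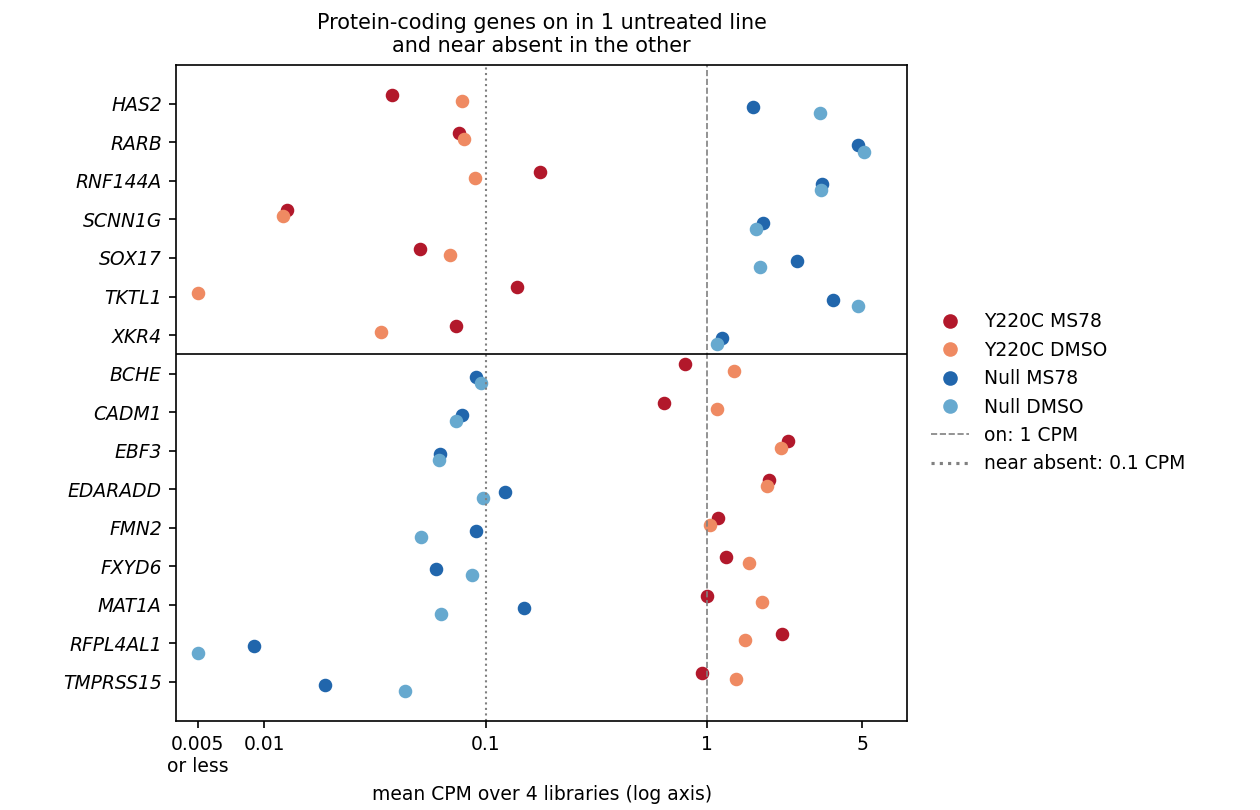
Mean CPM over 4 libraries (log axis) of the 16 protein-coding genes that were on in 1 untreated line and near absent in the other, in each group; values below 0.005 are drawn at 0.005. The upper 7 genes are on in Null DMSO and the lower 9 in Y220C DMSO, and no point of a silent line reaches 1 CPM under MS78.

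Relatives of the listed genes were then examined from lists of pathway partners and neighbours, to which 7 genes of DNA methylation were added. All lists were chosen with earlier results of these data known. Of 115 such genes 69 were tested, and 54 of the 69 (78.3%) differed between the lines under MS78 and 51 (73.9%) under DMSO, where 61.8% and 50.2% of all tested genes did. For RARB the list held 22 genes of retinoid reception, transport and metabolism, of which 14 were tested. Under MS78, 8 of these were lower and 3 higher in Y220C than in Null, with a median log2 fold change of -0.46, and under DMSO 10 were lower and 2 higher, with a median of -0.76. Over all tested genes the medians were -0.01 and 0.00.

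Among the genes that make retinoic acid or handle retinol, ALDH1A3, a retinaldehyde dehydrogenase, averaged 1.35 ± 0.39 CPM in Y220C MS78 and 7.85 ± 1.2 CPM in Null MS78 (log2 fold change -2.54, adjusted p = 4.24e-10). With DMSO it averaged 1.41 ± 0.43 CPM in Y220C and 7.68 ± 0.73 CPM in Null. STRA6, the retinol importer, averaged 0.288 ± 0.13 CPM in Y220C DMSO and 1.36 ± 0.24 CPM in Null DMSO (-2.23, adjusted p = 3.46e-05). DHRS3, a retinaldehyde reductase, was lower in Y220C under MS78 (-1.17, adjusted p = 3.02e-09) and under DMSO (-1.52, adjusted p = 6.77e-11). ALDH1A2, another retinaldehyde dehydrogenase, was at -0.48 under MS78 (adjusted p = 0.0930) and at -0.86 under DMSO (adjusted p = 0.00493), a call that was lost within the libraries with PTPRC reads (0.646) and with length-scaled counts (0.0671). Of the partner receptors, RXRA was lower in Y220C under MS78 (-0.89, adjusted p = 1.07e-09) and RXRB higher (0.15, adjusted p = 0.0408). Of the other retinoic acid receptors, RARG was at -0.27 (adjusted p = 0.000113) and RARA at 0.04 (adjusted p = 0.762) under MS78.

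NRIP1 and TGM2, both known as retinoic acid targets, responded to MS78 differently in the lines. NRIP1, a nuclear receptor corepressor, averaged 84.6 ± 3.8 CPM in Y220C MS78 and 36.8 ± 3.8 CPM in Y220C DMSO, a rise of 2.30-fold (log2 fold change 1.20, adjusted p = 6.61e-12), and its response differed between the lines by 1.43 (SE 0.10, adjusted p = 2.48e-09). TGM2, tissue transglutaminase, fell in the Y220C line (-0.25, adjusted p = 0.00104) and rose in the Null line (0.43, adjusted p = 1.05e-06). The TGM2 responses differed by -0.67 (SE 0.075, adjusted p = 1.33e-06). In the libraries without PTPRC reads TGM2 was at -0.22 in Y220C (adjusted p = 0.168) and 0.32 in Null (adjusted p = 0.0571).

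**Figure D5:**
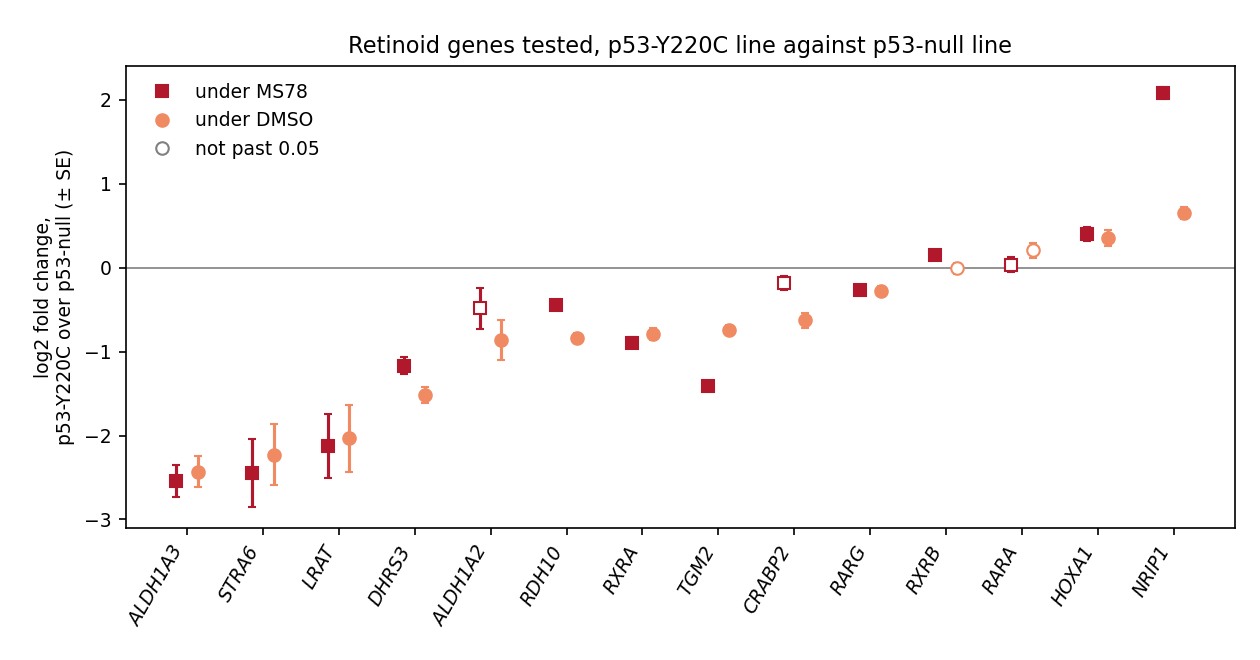
Log2 fold change (± SE) of the Y220C line against the Null line for the 14 retinoid genes tested, under MS78 (squares) and under DMSO (circles); open symbols are not past an adjusted p of 0.05. ALDH1A3, STRA6, LRAT and DHRS3 lie below -1 in both conditions, and NRIP1 lies at 2.08 under MS78.

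Transketolase itself, TKT, was highly expressed in both lines. It averaged 326 ± 16 CPM in Y220C MS78 and 315 ± 8.8 CPM in Y220C DMSO, and 371 ± 7.6 CPM in Null MS78 and 308 ± 10 CPM in Null DMSO. The log2 fold change of TKT with MS78 was 0.05 in the Y220C line (adjusted p = 0.286) and 0.27 in the Null line (adjusted p = 9.41e-06; 0.0720 without the libraries with PTPRC reads). PGD, phosphogluconate dehydrogenase of the oxidative branch, rose with MS78 in both lines, by 0.63 in Y220C (adjusted p = 2.90e-12) and by 0.67 in Null (adjusted p = 3.08e-12). Of the 9 pathway genes tested, MS78 raised 2 and lowered 4 in Y220C, and raised 3 and lowered 1 in Null, where 48.5% of all tested genes were called in Y220C and 28.1% in Null.

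For CRH, the genes for its receptors were hardly read: CRHR1 had 0 reads in all 16 libraries, and of the 10 genes on the list 2 were tested, UCN and NR3C1. NR3C1, the glucocorticoid receptor of the stress axis, averaged 57.1 ± 1.9 CPM in Y220C DMSO and 83.4 ± 2.8 CPM in Null DMSO (log2 fold change -0.55, adjusted p = 1.33e-09). For EBF3, the paralogs EBF1 and EBF2 did not pass the filter, and of 4 genes tested 3 differed between the lines under MS78, TCF12 being higher and TCF3 and TCF4 lower in Y220C, near the 61.8% of all tested genes, and under DMSO 1 of the 4 did. For OLIG2, NKX2-2, which acts beside OLIG2 in the ventral neural tube and in oligodendrocyte maturation, averaged 1.08 ± 0.22 CPM in Y220C MS78 and 0.179 ± 0.083 CPM in Null MS78 (2.59, adjusted p = 3.51e-05). NKX2-2 was also higher in Y220C with DMSO (1.99, adjusted p = 0.000395). In the libraries without PTPRC reads the MS78 comparison of NKX2-2 gave an adjusted p of 0.0754. Of 5 genes of the oligodendrocyte lineage tested under MS78, 2 were higher in Y220C (NKX2-2 and MBP, a myelin protein) and 2 lower (MYRF and SOX9), SOX9 by -0.74 (adjusted p = 3.98e-12), while SOX10 and PDGFRA did not pass the filter. Of all tested genes 61.8% differed in this comparison.

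For SYT12, 12 of 22 genes of synaptotagmins and vesicle fusion were tested. MS78 raised 6 and lowered 4 of them in Y220C, where 48.5% of all tested genes were called, and raised 5 in Null, where 28.1% were. STX1A, syntaxin 1A of the fusion complex, averaged 150 ± 6.0 CPM in Y220C MS78 and 35.8 ± 0.72 CPM in Y220C DMSO, a rise of 4.18-fold (log2 fold change 2.06, adjusted p = 1.03e-18), and its response differed between the lines by 1.90 (SE 0.068, adjusted p = 3.97e-14). SNAP25, its partner, was lower in Y220C under MS78 (-1.91, adjusted p = 6.11e-13) and under DMSO (-1.27, adjusted p = 3.92e-10). In the Null line STX1A rose by 0.16 (adjusted p = 0.0228), so that the larger response was in Y220C for STX1A and in Null for SYT12.

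The enzymes of DNA methylation were also listed. UHRF1, which guides DNMT1 to newly copied DNA, fell with MS78 in Y220C (log2 fold change -1.09, adjusted p = 7.55e-13) and in Null (-0.59, adjusted p = 5.64e-09), and the responses differed by -0.50 (SE 0.072, adjusted p = 2.57e-05). DNMT1, the maintenance methyltransferase, fell by 0.60 in Y220C (adjusted p = 3.37e-11) and by 0.49 in Null (adjusted p = 1.37e-09). DNMT3B, a de novo methyltransferase, fell by 0.66 in Y220C (adjusted p = 0.000815) and by 0.55 in Null (adjusted p = 0.00631). Without the libraries with PTPRC reads DNMT3B was not called in Y220C (0.140) or in Null (0.339), nor was the difference of the UHRF1 responses (0.0638). Of the 7 genes listed, 5 fell and 1 rose in Y220C, where 23.6% of all tested genes fell and 24.9% rose. In Null 3 of the 7 fell, where 13.3% of all tested genes did. Those that fell in Y220C included DNMT3A (-0.55, adjusted p = 7.35e-09) and the eraser TET1 (-0.48, adjusted p = 0.000170). MKI67, a marker of dividing cells, also fell in Y220C (-1.49, adjusted p = 1.49e-08), and it was called lower with MS78 in Null too. What these changes have to do with the listed genes was not tested.

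The genes whose log2 CPM followed each listed gene most closely over the 16 libraries are given as a description, since the libraries share lines, treatments and depth. For RARB they were RIPK4 (Pearson r = 0.994), SCNN1G (0.994) and IGSF3 (0.994), and for TKTL1 they were ADORA2B (0.984), FGFRL1 (0.982) and HES1 (0.981). CLEC11A (0.993), SESN3 (0.990) and APLP1 (0.989) were closest to CRH. STAMBPL1 (0.988), SP100 (0.988) and PCGF5 (0.987) were closest to EBF3, and SLC22A23 (0.985), DSP (0.982) and GPATCH1 (0.981) to OLIG2. For SYT12 the highest values were lower, at 0.903 for MARCH2, 0.891 for RASGEF1A and 0.891 for C15orf48. Of these, SCNN1G alone was itself on in 1 untreated line and near absent in the other.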

How the data were processed

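The authors deposited 1 table of transcripts per library with estimated counts (NumReads), TPM, length and effective length, per the file headers. Reads were processed against hg38 with FastQC 0.11.8 among the tools, per the submitters' processing notes; for the quantifier's version, annotation and strand setting the entry is not given in the sources used here. Of 197653 transcripts, 193348 (97.8%) matched GENCODE 29 by identifier and were summed to genes; 0.278% to 0.325% of reads were on the others and were left out. No column of other samples was present. Sums were rounded to whole numbers.

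All 16 libraries entered 1 fit in edgeR 4.0.16 (R 4.3.3, TMM scaling, quasi-likelihood F tests, 12 residual degrees of freedom). Benjamini-Hochberg adjustment ran over all 15687 tested genes with a threshold of 0.05. The log2 CPM used for correlations had a prior count of 2. The TPM values of the authors were summed per gene to compare levels between genes. Counting intervals are exact at 95%, and the floor is 3 reads per library. Libraries with more than 10 PTPRC reads formed the set with PTPRC reads. Genes were named by rule: the 6 listed genes and PTPRC; from each list and comparison up to 4 called genes of largest log2 fold change with a mean of at least 1 CPM; the nearest 2 coding genes on each side; and the 3 genes of highest correlation. RARA, RARG, RXRA, RXRB, LRAT, TET1, STX1A in the Null line, SOX10, PDGFRA, CRHR1 and UCN, the genes on in 1 line only, and the markers fall outside it, and their choice followed a look at the values. The 6 genes and all lists were chosen with earlier results of these data known. Some results are not reported here. The fit was tested on simulated counts with known changes.

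No library pair differed by as little as sampling noise. Same-numbered libraries of MS78 and DMSO did not deviate together (r from -0.502 to -0.0419). Those of Y220C MS78 and Null MS78 had r of 0.531, 0.150, 0.203 and 0.174, and replicate 2 of Y220C MS78 matched replicate 3 of Null MS78 best. Those of Y220C DMSO and Null DMSO had r of 0.452, 0.175, -0.0568 and 0.148. Replicate 1, with the largest r in both, is the library whose PTPRC reads set it apart from its group. Alternatives were DESeq2 1.42.0 and its size factors, no filter, length-scaled counts, terms for PTPRC and replicate, and leaving out each library.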

Additional observations from a re-analysis of the deposited data

Results flagged for a closer look

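Differences between the MS78 responses of the lines, Y220C minus Null, that passed the interaction test of edgeR were, on the log2 scale, -2.19 for CRH and -1.83 for SYT12 among the 6 genes. Both use the DMSO reads that entered the listing and are given as a description. No difference is given for TKTL1, which is at the floor in Y220C. Among the relatives examined for both responses they were 1.43 for NRIP1, -0.67 for TGM2, 1.90 for STX1A, -0.50 for UHRF1 and -0.22 for TKT (adjusted p = 0.00365). Other genes named above passed the same test, among them SNAP25 (-0.64), NR3C1 (0.33), RRS1 (0.28), TCF4 (-0.29) and SOX9 (-0.18).

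In 5 of 94 groups of 4 libraries examined, 1 library stood apart from the other 3 by Dixon's test, and chance flags about 1 in 20 groups. RARB had 3.73 CPM in Null MS78 replicate 3, and 5.06 to 5.19 CPM in the others. DNAJC5B had 0.580 CPM in the same library, and 0.817 to 0.828 CPM in the others. SOX9 had 145 CPM in Null MS78 replicate 2, and 134.6 to 136 CPM in the others. UHRF1 had 64.6 CPM in Null MS78 replicate 2, where the others had 58.2 to 58.6 CPM, and 65.0 CPM in Y220C DMSO replicate 2, where the others had 59.1 to 59.9 CPM.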

How the results depend on the processing

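Of 1008 values of single genes under alternatives, over 59 results, 974 kept their direction and side of the threshold, 32 lost the call, 1 gained it and 1 changed sign: EBF3 in Y220C, at -0.055 without Y220C MS78 replicate 2 (range -0.055 to 0.21 over the libraries left out). Without the libraries with PTPRC reads 0 of the 6 genes were called for MS78 in Y220C, 0 in Null and 0 for the difference of responses. All genes called there numbered 3490 in Y220C (7611 with all libraries), 1070 in Null (4402), 411 for the difference (4197) and 4184 between the lines under MS78 (9699). Within the libraries with PTPRC reads the counts were 2346 in Null, 1870 for the difference and 3817 between the lines under DMSO (7875), with 27 of the relatives and neighbours (51). Length-scaled counts gave 2848 in Null and 2751 for the difference. These sets hold fewer libraries. Cuts of 0.5 and 0.05 CPM left 1 of the 6 genes on in 1 line only, and summed TPM gave 68 such genes in all.

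Leaving out each library in turn gave 2 to 3 of the 6 genes in Y220C, 1 to 1 in Null, 3 to 3 for the difference, 6 to 6 under MS78, and 2 to 4 meeting the cuts, with 18 to 32 such genes overall and 48 to 52 relatives and neighbours under DMSO. All genes called ranged over 6966 to 7334 in Y220C, 3688 to 4054 in Null, 3685 to 4250 for the difference, 9238 to 9455 under MS78 and 7270 to 7798 under DMSO. The exact permutation p in the low line ranged over 0.0571 to 0.286 for TKTL1, 0.0571 to 0.114 for CRH, 0.343 to 0.914 for RARB, 0.457 to 0.971 for EBF3 and 0.286 to 0.971 for OLIG2, and for RARB, EBF3 and OLIG2 the direction changed in some: RARB 0.857 (without Y220C MS78 replicate 1 or 2) and 0.571, EBF3 0.971, 0.629, 0.914 and 0.457, OLIG2 0.914, 0.857, 0.286 and 0.971. The cause was not tested. With the replicate number as a block, CRH in Y220C was at -2.06 (edgeR adjusted p = 0.00264), and the block changed no call of the 6 genes, also in a fit of the MS78 libraries alone that was added after seeing the data. Depth limits genes near 3 reads per library, for which no fold is given.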
